A study of Mus musculus with 8 samples.

Results

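The collagen genes were compared between dorsal root ganglia of wild-type mice and of mice that lack most of the transcript of Tmem184b, a transmembrane protein. The members are all genes of the deposited table whose symbol is Col, a number, a and a number, 44 of the 40800 genes listed. They comprise 11 fibrillar collagens, 8 basement membrane collagens (the type IV chains with Col15a1 and Col18a1) and 25 others. Controls were 4 C57BL/6 mice, whose samples are numbered 1, 3, 4 and 8. Mutants were 4 mice that carry a Tmem184b gene trap on both copies (C57BL/6 background), numbered 1 to 4. Both genotypes were taken at 6 months, and values are given throughout in the order of these numbers. A trapped allele diverts splicing of its host gene into an inserted cassette. It is present in all tissues of the animal, so a difference in ganglia cannot be assigned to 1 cell type. How the ganglia of a mouse were combined is not given in the sources used here.

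Collagens are secreted or membrane proteins of 3 chains wound into a triple helix, and they are the main structural proteins of connective tissue. Fibrillar collagens (types I, II, III, V, XI, XXIV and XXVII) assemble into banded fibrils. Type IV chains form the sheet-like network of basement membranes, and types XV and XVIII lie in basement membrane zones. The remaining types decorate fibrils, form beaded filaments or hexagonal networks, anchor basement membranes or cross the cell membrane. In a ganglion, fibroblasts of the endoneurium and capsule, perineurial cells, vessels and the glia around neurons and axons are all known sources of collagen. Whole ganglia were sequenced, so fewer cells of a type and less RNA per cell cannot be told apart.

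The genotype labels were checked on the trapped gene. Tmem184b lay between 7.36 and 7.51 log2 CPM in wild types, compared with 2.47 to 3.1 in mutants. CPM scales the reads of a gene to the size of its library, and a small count was added before the logarithm. Libraries held 6183618 to 7983821 reads, and the worth of 1 read was 0.125 to 0.162 CPM. All 10 sensory neuron markers passed the filter, and their summed level was 11053 to 12191 CPM for wild types, compared with 11238 to 12209 CPM for mutants. The labels give no sex. The Y-linked Ddx3y was at 5.38 to 5.69 log2 CPM in wild type 3 and mutants 3 and 4 and between -1.79 and -0.58 in the others. Xist, a transcript of female cells, was at -0.89 to 0.37 log2 CPM in those samples and 7.72 to 8.25 in the others. By both transcripts wild type 3 and mutants 3 and 4 read as male and the others as female. Sex was therefore not balanced between genotypes, and the Xist covariate used below follows this split.

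The promoters below belong to the collagens that passed the test, Col24a1 and Col16a1, and to Col3a1, an abundant fibrillar collagen that did not. Each run is the 250 bases before the RefSeq start in GRCm38.p6, written 5′ to 3′ along the gene. Capitals mark 3 motifs searched on either strand: TATAAA, the core of a TATA box, then CCAAT, the core of the box of that name, and also GGGCGG, the core of a GC box. No marked motif overlaps another.
Col24a1, chr3:145292222-145292471, plus strand: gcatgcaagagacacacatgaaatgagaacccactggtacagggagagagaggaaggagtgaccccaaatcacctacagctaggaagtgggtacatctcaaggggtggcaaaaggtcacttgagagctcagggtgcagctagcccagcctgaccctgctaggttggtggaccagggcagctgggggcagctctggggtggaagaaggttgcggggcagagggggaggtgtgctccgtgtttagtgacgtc
Col16a1, chr4:130047590-130047839, plus strand: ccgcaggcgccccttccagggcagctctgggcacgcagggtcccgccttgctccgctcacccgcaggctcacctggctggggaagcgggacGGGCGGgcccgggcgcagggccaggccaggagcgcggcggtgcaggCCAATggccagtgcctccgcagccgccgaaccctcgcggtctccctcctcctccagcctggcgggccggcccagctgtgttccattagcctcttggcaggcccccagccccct
Col3a1, chr1:45311288-45311537, plus strand: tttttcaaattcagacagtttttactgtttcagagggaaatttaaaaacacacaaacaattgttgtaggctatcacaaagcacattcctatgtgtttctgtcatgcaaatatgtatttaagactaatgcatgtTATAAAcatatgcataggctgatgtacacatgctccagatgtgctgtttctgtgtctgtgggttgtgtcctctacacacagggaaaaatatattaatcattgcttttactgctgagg
The Col24a1 window holds none of these motifs. The Col16a1 window holds 1 CCAAT and 1 GGGCGG, and the Col3a1 window holds 1 TATAAA. Among 32851 windows of this length, 12.4% hold TATAAA, 33.8% CCAAT and 32.7% GGGCGG on either strand. Of 38 windows of 35 matched collagens, 5 (13.2%) hold TATAAA, 13 (34.2%) CCAAT and 22 (57.9%) GGGCGG. A match or its absence says nothing here about a factor, since no binding was measured.

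Collagen levels spanned a wide range. Divided by the length of the longest protein-coding transcript, the highest mean levels over the 8 samples were 41.8 CPM per kb for Col1a2, 25.6 for Col3a1 and 21.8 for Col1a1, the chains of the major fibrils of connective tissue. Col28a1, known as a collagen of peripheral nerve, followed at 17.1 CPM per kb. Next came the basement membrane chain Col4a1 at 16.8 CPM per kb, and then Col6a1 at 12.7, Col4a2 at 11.3, Col5a3 at 11.2 and Col6a2 at 10.6. Col28a1 and Col4a1 had the same wild-type mean, 16.1 CPM per kb. At least 1 CPM per kb was measured for 26 collagens. At the other end, 5 members had too few reads to be tested. Col9a1, a cartilage chain, had 0 reads in 7 samples and 1 read in mutant 2. Col6a4 had 0 to 8 reads, Col17a1 1 to 5, Col6a6 2 to 6 and Col4a6 3 to 11 reads. These genes had a log2 CPM above 0 in fewer than 4 of the 8 samples, the number the filter asked for.

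Col24a1 and Col16a1 were higher in the mutant, and no collagen was lower by the test. Of the 39 tested collagens, 2 passed a limma adjusted p of 0.05, or 5.13%, beside 5.46% of all 15030 tested genes. Both were higher, beside 2.81% of all genes called higher and 2.64% called lower. A share this close to the background is no result about collagens as a group. On deposited values 423 genes passed as higher and 397 as lower, and after centring of samples on their medians 204 and 706 did. An unadjusted p under 0.05 was found for 6 collagens, beside 21.3% of all tested genes. The log2 difference was above 0 for 33 of the 39, beside 64.4% of all genes, and its median was 0.21 beside 0.07 for all genes. After median centring, 30 of the 39 were above 0 and their median was 0.11, beside 44.7% and -0.03 for all genes. The plot of differences with their errors shows how wide most of them were.

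**Figure D1:**
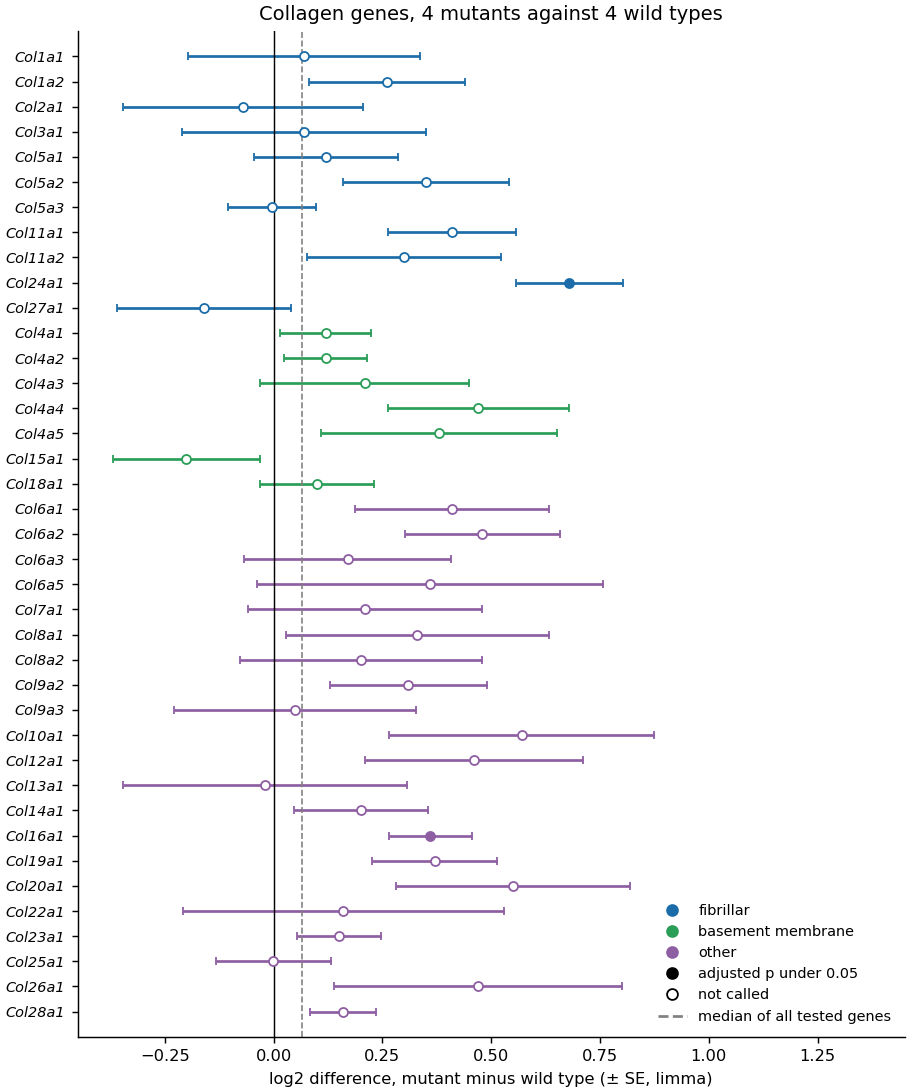
Log2 difference of each tested collagen gene, mutant minus wild type, with its standard error from limma (4 samples a group). Filled points mark the 2 genes with an adjusted p under 0.05, Col24a1 and Col16a1, and the dashed line is the median of all tested genes, 0.066.

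Among the fibrillar collagens, 1 of 11 was called. Col24a1, a minor fibrillar collagen, measured 4.32, 3.75, 3.87 and 3.97 log2 CPM across the wild types, against 4.67, 4.64, 4.82 and 4.5 across the mutants. All mutants lay above all wild types. That held for 2 of the 39 collagens, beside 7.5% of all tested genes. All mutants lay below all wild types for 0 collagens, beside 4.92% of all genes. The rise was 0.68 in log2 units (SE 0.124; limma adjusted p = 0.00607). Levels were 15.7 ± 2.84 CPM for wild type against 25.0 ± 2.35 CPM for mutant (SD, n = 4), from 97 to 124 and 152 to 182 reads. The gene (ENSMUSG00000028197) lies on chromosome 3 at 145292472 to 145552011, plus strand, in GRCm38, and its exons overlap no other annotated gene. The call held without any 1 sample, and it was lost without a variance trend (adjusted p = 0.0627) and with no filter on low values (0.177).

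The chains of the major fibrils, Col1a1, Col1a2 and Col3a1, were not called. Col1a1 read 6.98, 6.53, 7.89 and 6.18 log2 CPM over the wild types, compared with 7.16, 7.03, 6.45 and 7.22 over the mutants. Wild type 4 was above every mutant and wild type 8 below every mutant. The difference was 0.07 (SE 0.267; limma adjusted p = 0.913), and it was -0.02 after median centring. Col3a1 showed 7.18, 6.57, 8.02 and 6.34 log2 CPM for the wild types, beside 7.29, 7.26, 6.47 and 7.37 for the mutants. It showed the same order of wild types, and mutant 3 lay apart from the other mutants. The difference was 0.07 (SE 0.281; limma adjusted p = 0.913) and -0.02 after median centring. Col1a2 measured 7.66, 7.30, 8.32 and 7.26 log2 CPM across the wild types, against 7.96, 7.95, 7.57 and 8.08 across the mutants. The 3 wild types other than wild type 4 were below 3 of the 4 mutants. The difference was 0.26 (SE 0.179; limma adjusted p = 0.441).

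Type V and type XI chains sit inside the fibrils of types I and II and regulate their width. Col5a1 differed by 0.12 and Col5a2 by 0.35, with limma adjusted p of 0.731 and 0.312. Col5a2 read 5.16, 4.57, 5.78 and 4.82 log2 CPM over the wild types, compared with 5.49, 5.49, 5.16 and 5.59 over the mutants, so that wild type 4 alone reached above the mutants. Col5a3, the chain known from Schwann cells, was the steadiest of the 3. It spanned 5.88 to 6.44 log2 CPM among wild types, beside 6.0 to 6.2 among mutants, and differed by -0.0036 (SE 0.102). Col11a1 showed 4.75, 4.0, 4.59 and 4.62 log2 CPM for the wild types, beside 4.86, 5.18, 4.85 and 4.72 for the mutants. Only mutant 4 fell within the range of the wild types. The difference was 0.41 (SE 0.147; limma adjusted p = 0.121), and with Xist as a covariate it was 0.49 and passed (0.0223). That covariate was the only 1 of 22 alternatives in which Col11a1 passed, and its limma adjusted p reached 0.656 among them. Col11a2 differed by 0.30 (0.467).

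Col2a1 and Col27a1, known from cartilage, had differences of -0.07 and -0.16 on the log2 scale, with limma adjusted p of 0.914 and 0.688. The Col2a1 level was low, at 12 to 25 reads a library. Col27a1 spanned 3.69 to 4.41 log2 CPM among wild types, beside 3.45 to 4.49 among mutants, so the mutants held both its lowest and its highest value. Over the 11 fibrillar collagens the median log2 difference was 0.12, with 8 above 0, beside 0.07 and 64.4% for all genes. The median was 0.03 after median centring, 0.41 without wild type 4 and -0.02 without wild type 8.

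**Figure D2:**
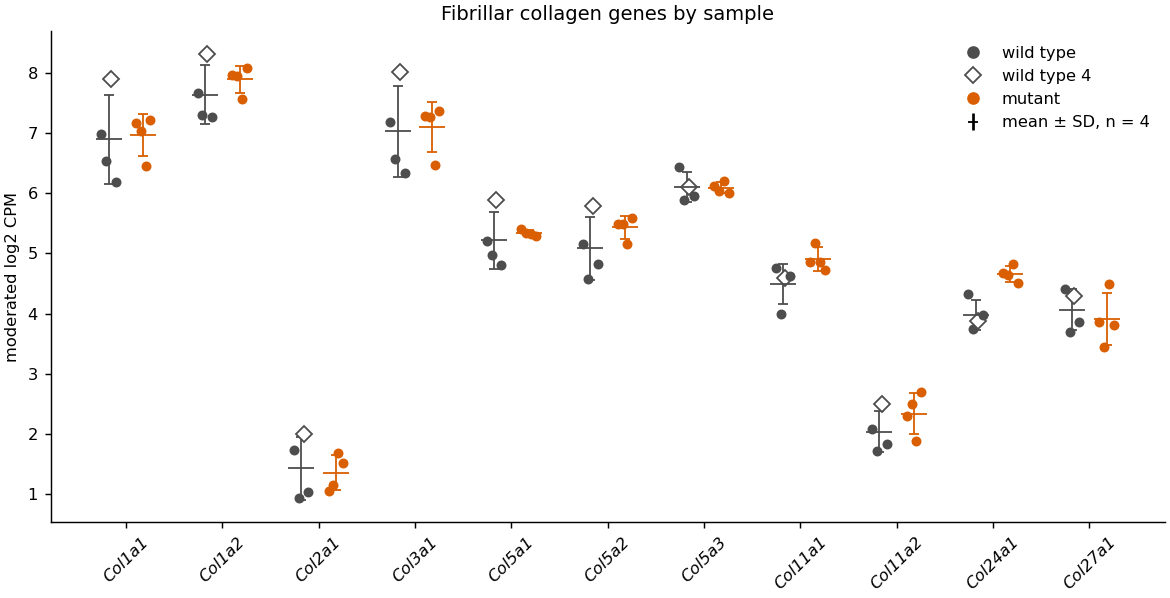
Moderated log2 CPM of the 11 fibrillar collagens in each wild type (grey) and mutant (orange) sample, with mean and SD (n = 4). Wild type 4 (open diamond) is the highest wild type for 7 of the 11, among them Col1a1 at 7.89 and Col3a1 at 8.02, whereas for Col24a1 all mutants lie above all wild types.

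No basement membrane collagen was called among the 7 tested. Col4a1 and Col4a2 encode the chains of the common type IV network, and their genes lie head to head on chromosome 8. Col4a1 measured 6.74, 6.50, 7.01 and 6.68 log2 CPM across the wild types, against 7.12, 6.76, 6.67 and 6.87 across the mutants. Col4a2 read 6.29, 5.90, 6.25 and 6.05 log2 CPM over the wild types, compared with 6.43, 6.28, 6.09 and 6.15 over the mutants. For each of these genes the groups overlapped and wild type 3 was lowest. The differences were 0.12 (SE 0.105; limma adjusted p = 0.550) for Col4a1 and 0.12 (SE 0.0948; 0.520) for Col4a2. Their exons overlap by 22 bases on opposite strands, and use of strand in counting is not given in the sources used here.

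The chains of more restricted type IV networks were scarce. Col4a4 showed 1.92, 2.41, 2.97 and 2.20 log2 CPM for the wild types, beside 2.81, 2.69, 2.79 and 3.08 for the mutants, from 22 to 57 reads a library. Wild type 4 lay among the mutants and the other wild types below them. The difference was 0.47 (SE 0.208; limma adjusted p = 0.210). Col4a5 differed by 0.38 (0.453) and Col4a3 by 0.21 (0.673), each from 14 to 35 reads a library. Col18a1, whose C-terminal fragment is endostatin, differed by 0.10 (0.708). Col15a1, of muscle and vessel basement membranes, had the lowest difference of all collagens at -0.20 (SE 0.168; 0.531). It measured 5.94, 5.33, 6.28 and 5.38 log2 CPM across the wild types, against 5.56, 5.28, 5.65 and 5.63 across the mutants. Wild types 1 and 4 were above every mutant and the other 2 among them. The median of the 7 was 0.12, or 0.03 after median centring.

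Among the other collagens, 1 of 21 tested was called. Col16a1, a collagen that sits on fibrils and links them to neighbouring matrix, read 5.72, 5.18, 5.49 and 5.45 log2 CPM over the wild types, compared with 5.83, 5.88, 5.85 and 5.74 over the mutants. The mutants lay close together and just above wild type 1. The rise was 0.36 in log2 units (SE 0.0956; limma adjusted p = 0.0389), from 44.2 ± 6.75 to 56.5 ± 2.26 CPM (SD, n = 4). It (ENSMUSG00000040690) lies on chromosome 4 at 130047840 to 130099283, plus strand, in GRCm38. Its call stood without wild type 1 (adjusted p = 0.0184) and was lost without any other single sample, at 0.0507 to 0.101. Further losses came with median centring (0.112), quantile normalization (0.0733), removal of the GC trend (0.0775), no variance trend (0.148) and no filter (0.357).

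The remaining collagens that associate with fibrils were not called. Col12a1 showed 5.33, 5.63, 6.24 and 5.70 log2 CPM for the wild types, beside 6.25, 6.67, 5.24 and 6.59 for the mutants. Mutant 3 held the lowest value of all 8 samples, and the other mutants were above every wild type. The difference was 0.46 (limma adjusted p = 0.312), and without mutant 3 it was 0.78 and passed (0.0120). Leaving out the lowest mutant raises the difference, so that call is no separate evidence of a rise. Col19a1, which is also made by neurons, measured 3.07, 3.22, 2.77 and 3.15 log2 CPM across the wild types, against 3.5, 3.39, 3.57 and 3.22 across the mutants. Mutant 4 and wild type 3 had the same value and the other mutants were above. The difference was 0.37 (SE 0.143; 0.150). Col14a1 differed by 0.20 (0.501), Col9a2 by 0.31 (0.350), Col9a3 by 0.05 (0.940), Col20a1 by 0.55 (0.258) and Col22a1 by 0.16 (0.849), the last 3 of them from 3 to 22 reads a library. For Col9a3 the difference was -0.04 after median centring, and for Col22a1 it was -0.03 after quantile normalization.

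Type VI chains form beaded filaments around cells and are widely made by fibroblasts. Col6a1 read 5.37, 5.07, 6.25 and 5.04 log2 CPM over the wild types, compared with 5.96, 5.94, 5.32 and 6.14 over the mutants. Col6a2 showed 5.34, 5.07, 5.95 and 5.04 log2 CPM for the wild types, beside 6.00, 5.96, 5.37 and 5.97 for the mutants. In both, wild type 4 lay near the higher mutants and mutant 3 near the lower wild types. The differences were 0.41 (SE 0.223; limma adjusted p = 0.315) and 0.48 (SE 0.178; 0.133). Without mutant 3, the lowest mutant here, the Col6a2 difference was 0.63 and passed (0.0365), which is no separate evidence of a rise. Col6a3 differed by 0.17 (0.739), with wild type 4 at 6.11 log2 CPM above the mutants at 4.91 to 5.50. Col6a5 differed by 0.36 (0.658), from 7 to 44 reads a library.

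Collagens VIII and X form networks. Col8a1 measured 3.36, 2.82, 4.30 and 2.85 log2 CPM across the wild types, against 3.56, 4.0, 2.94 and 4.15 across the mutants, and differed by 0.33 (limma adjusted p = 0.577). Col8a2 differed by 0.20 (0.736), with wild type 4 and mutants 2 and 4 high in both chains. Col10a1, a collagen of growth plate cartilage, differed by 0.57 (0.308) from 4 to 16 reads a library. Col7a1, which forms anchoring fibrils, spanned 2.02 to 2.98 log2 CPM among wild types, beside 2.22 to 3.57 among mutants, and differed by 0.21 (0.713). Mutant 3, the lowest mutant for many collagens, was the highest sample for Col7a1.

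The tested membrane-spanning collagens, Col13a1, Col23a1 and Col25a1, were not called. Col23a1 spanned 5.10 to 5.34 log2 CPM among wild types, beside 5.13 to 5.57 among mutants, and differed by 0.15 (SE 0.0958; limma adjusted p = 0.410). Col25a1, known for a role in motor innervation of muscle, was at 3.56 to 3.93 and 3.41 to 3.83 log2 CPM. Col13a1, of the neuromuscular junction, had 4 to 9 reads a library and differed by -0.02 (0.981). Col28a1 and Col26a1 are not of this class. Col28a1, among the steadiest collagens, read 6.02, 6.02, 6.10 and 6.24 log2 CPM over the wild types, compared with 6.25, 6.15, 6.18 and 6.43 over the mutants. Its difference was 0.16 (SE 0.0763; 0.257), or 0.06 after median centring. Col26a1 differed by 0.47 (0.448) from 5 to 18 reads a library. The median of the 21 was 0.31, with 19 above 0, beside 0.07 and 64.4% for all genes. After median centring the median of the 21 was 0.22, beside -0.03 for all genes.

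Single samples stood apart within both groups. Wild type 4 was the highest wild type for 28 of the 39 tested collagens, beside 29.6% of all tested genes, and it was above every mutant for 16 of them. It exceeded the mean of the other wild types by at least 1 on the log2 scale for 8 collagens: Col1a1, Col3a1, Col6a1, Col6a3, Col6a5, Col8a1, Col8a2 and Col22a1. Mutant 3 was the lowest mutant for 19, beside 28.2% of all genes. The summed level of all collagens was 1389, 1083, 1967 and 1107 CPM across wild types, compared with 1637, 1571, 1281 and 1658 CPM across mutants. Wild types 3 and 8 lay below every mutant in this sum, and wild type 4 above every mutant. Col24a1, Col16a1, Col28a1, Col5a3 and Col11a1 did not share its excess: wild type 4 was within 0.14 of the mean of the other wild types on the log2 scale for each.

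**Figure D3:**
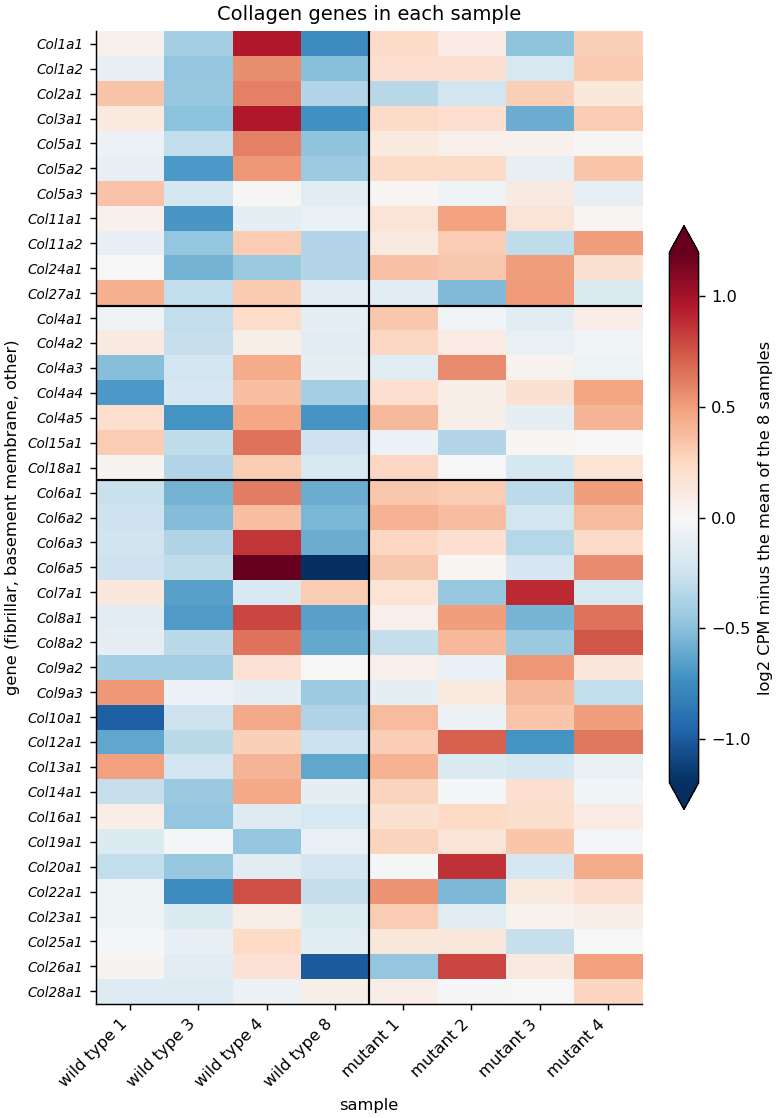
Log2 CPM of the 39 tested collagens in each sample, minus the mean of the 8 samples for that gene (colour); rows run from fibrillar through basement membrane to other collagens. Wild type 4 is the highest wild type in 28 rows and mutant 3 the lowest mutant in 19.

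Markers of connective tissue cells were read beside these samples. The summed level of 11 fibroblast markers was 708, 678, 936 and 689 CPM across wild types, compared with 1030.5, 934, 822 and 1152 CPM across mutants. Gsn and Dcn had the highest wild-type means of the list, 324 and 270 CPM, so the sum largely follows them. All 11 were above 0 in their difference, with a median of 0.35, beside 64.4% and 0.07 for all tested genes. Of the 11, 1 was called, Dcn, which is also on the list of fibril proteoglycans, beside 2.81% of all genes called higher. For 9 perineurial and meningeal markers the sum was 233, 245, 442 and 195 CPM across wild types, compared with 373, 406, 276 and 463 CPM across mutants. All 9 were above 0, with a median of 0.51, and the called members were Cldn1 and Itgb4, beside the same shares of all genes. In both sums wild type 4 was the highest wild type and mutant 3 the lowest mutant, and their part in the collagen values was not tested.

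Wild type 4 was singled out above on these same collagen values. Leaving it out raises the difference of each gene for which it lay above the mean of the other wild types. Calls gained without it, here and in the lists below, are therefore no separate evidence of a rise. Without wild type 4, 6 of the 39 collagens were called, all higher, beside 3.81% of all genes called higher and 2.36% called lower in that fit. These were Col24a1, Col1a2, Col5a2, Col4a4, Col6a1 and Col6a2. The differences and limma adjusted p were 0.64 (0.0121) for Col24a1, 0.48 (0.0206) for Col1a2, 0.58 (0.0184) for Col5a2, 0.67 (0.0473) for Col4a4, 0.68 (0.0168) for Col6a1 and 0.68 (0.00999) for Col6a2. In that fit Col1a1 was at 0.40 (0.199) and Col3a1 at 0.41 (0.257), and Col16a1 at 0.37 (0.0507). The median of the 39 was 0.41 and 37 were above 0, beside 0.07 and 64.9% for all genes in that fit. Without wild type 8 instead, 1 collagen was called, Col24a1. The median of the 39 was then 0.17 and 27 were above 0, beside 0.07 and 64.4% for all genes. Leaving out mutant 3 gave 3 calls, Col24a1, Col6a2 and Col12a1, beside 3.38% of all genes called higher. Mutant 3 was also singled out on these collagen values, so calls gained without it are no separate evidence either. With Xist as a covariate 3 were called, Col24a1, Col16a1 and Col11a1, beside 2.54%. Col24a1 was the only collagen called in all of these fits.

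**Figure D4:**
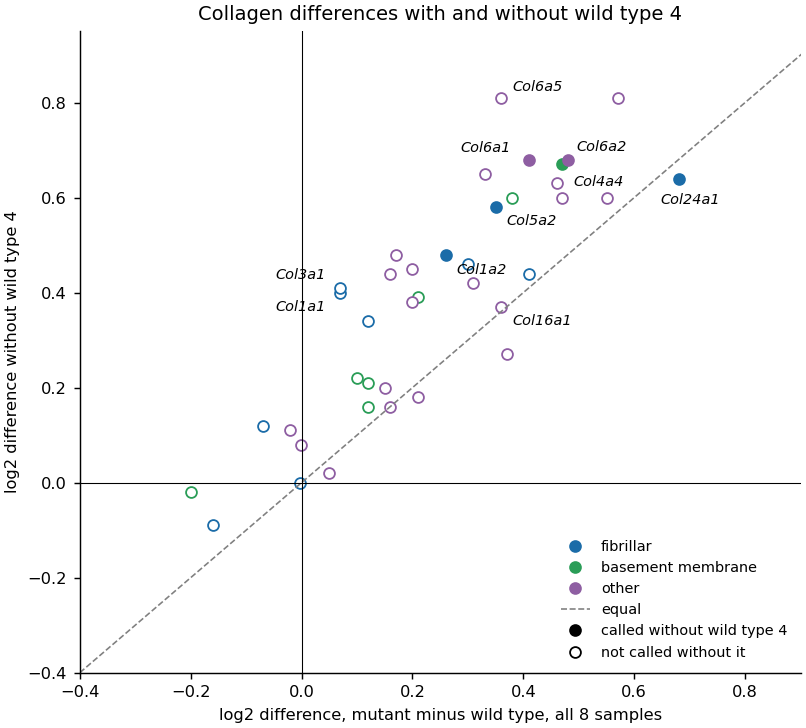
Log2 difference of each tested collagen, mutant minus wild type, with all 8 samples (horizontal axis) and without wild type 4 (vertical axis); filled points have a limma adjusted p under 0.05 without wild type 4. Points above the dashed line of equality gain without that sample, such as Col1a1, from 0.07 to 0.40, whereas Col24a1 lies at 0.68 and 0.64.

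Chains that wind into the same molecule were compared within samples, since a difference of 2 genes in a sample does not move with its library total. Of 8 pairs, none passed after adjustment, by exact two-sided permutation over 70 assignments of samples, with 0.0286 the smallest p that they allow. A pair could pass only if at least 5 of the 8 reached that p, so this outcome says little about any pair. Col6a1 minus Col6a3 was 0.36, 0.17, 0.14 and 0.39 log2 units across wild types, compared with 0.46, 0.48, 0.42 and 0.66 across mutants. The groups did not overlap, and the difference of 0.24 had an exact permutation p of 0.0286, or 0.229 adjusted over the 8 pairs. Col1a1 minus Col1a2 was -0.74 ± 0.27 for wild type against -0.92 ± 0.14 for mutant (SD, n = 4; exact permutation p = 0.257, adjusted 0.686). Col4a1 minus Col4a2 was 0.61 ± 0.13 for wild type against 0.61 ± 0.11 for mutant (SD, n = 4; exact permutation p = 0.971). Col5a1 minus Col5a2 differed by -0.23 (exact permutation p = 0.143, adjusted 0.571). For Col6a1 with Col6a2, Col8a1 with Col8a2, Col9a2 with Col9a3 and Col11a1 with Col11a2 the differences were -0.07, 0.13, 0.26 and 0.11, with exact permutation p of 0.457, 0.486, 0.600 and 0.714.

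Genes that make, process, bind and degrade collagen were read from fixed lists, beside 2.81% of all tested genes called higher and 2.64% called lower, or 3.81% and 2.36% without wild type 4. An unadjusted p under 0.05 was found for 21.3% of all tested genes. Enzymes and chaperones that modify the chains in the endoplasmic reticulum had 0 of 19 tested members called and 2 with an unadjusted p under 0.05, with a median log2 difference of 0.16. The largest differences there were in P3h3, a prolyl 3-hydroxylase, at 0.62 (limma adjusted p = 0.0712), and Plod2, a lysyl hydroxylase, at 0.43 (0.164). Of the enzymes that trim procollagen and cross-link fibrils, 1 of 14 was called and 6 had an unadjusted p under 0.05, with a median of 0.34. Bmp1, which removes the C-terminal propeptide, showed 4.06, 4.13, 4.55 and 4.05 log2 CPM for the wild types, beside 4.76, 4.81, 4.66 and 4.65 for the mutants. All mutants were above all wild types, with wild type 4 nearest to them. Bmp1 rose by 0.52 (SE 0.115; limma adjusted p = 0.0164), and the call was lost without wild type 1, wild type 3 or mutant 1, at 0.0501 to 0.0584. Adamts3, which removes the N-terminal propeptide, was named after its value was seen, as the lowest difference of the list. It had 4.67, 4.47, 4.05 and 4.03 log2 CPM in wild type samples, next to 3.58, 4.07, 3.85 and 3.62 in mutant samples. The groups overlapped through mutant 2, and the difference was -0.52 (SE 0.155; limma adjusted p = 0.0649). Without wild type 4, 2 of the 14 were called higher, Bmp1 at 0.64 and Pcolce at 0.73, and 1 lower, Adamts3 at -0.61 (limma adjusted p = 0.0384).

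Small leucine-rich proteoglycans bind the surface of collagen fibrils. Of 10 tested, 3 were called higher, Dcn, Ogn and Omd, beside 2.81% of all genes, and the median was 0.60. All 10 were above 0 and 8 had an unadjusted p under 0.05, beside 64.4% and 21.3% of all genes. Dcn, which encodes decorin, measured 8.07, 7.86, 8.38 and 7.94 log2 CPM across the wild types, against 8.62, 8.51, 8.52 and 8.99 across the mutants, so that no mutant reached down to wild type 4. It rose by 0.60 (SE 0.114; limma adjusted p = 0.00820). Ogn, osteoglycin, read 5.68, 5.6, 6.29 and 6.02 log2 CPM over the wild types, compared with 6.61, 6.45, 6.29 and 6.84 over the mutants, where mutant 3 and wild type 4 had the same value. It rose by 0.65 (SE 0.139; limma adjusted p = 0.0147). Omd, osteomodulin, had 5 to 23 reads a library and rose by 1.14 (SE 0.287; limma adjusted p = 0.0326). Without wild type 4, 7 of the 10 were called higher, beside 3.81% of all genes. The Omd call was lost under quantile normalization (0.0631) and without wild type 3 or 8 or mutant 1, 2 or 4, at 0.0525 to 0.107, and the Ogn call without wild type 1 (0.0565). Both Dcn (0.0606) and Ogn (0.0802) lost theirs with a robust variance trend. With no filter and with no variance trend, Bmp1, Dcn, Ogn, Omd, Timp3, Agrn and Lama2 each lost their calls, at 0.0764 to 0.422.

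Collagen receptors had 0 of 9 tested members called and 2 with an unadjusted p under 0.05, with a median of 0.26. The largest differences were in Itga10, an integrin chain, at 0.71 (limma adjusted p = 0.235) from 7 to 30 reads a library, and Mrc2, which takes up collagen into cells, at 0.60 (0.123). Without wild type 4 the Mrc2 difference was 0.87 and passed (0.00555), as did P3h3 at 0.81 (0.00883). Genes of collagen breakdown and its inhibitors had 1 of 9 called, 1 with an unadjusted p under 0.05 and a median of -0.04. That gene, Timp3, an inhibitor of matrix proteases, showed 7.11, 7.06, 7.25 and 7.33 log2 CPM for the wild types, beside 7.81, 7.5, 7.42 and 7.59 for the mutants. All mutants were above all wild types, and it rose by 0.39 (SE 0.0825; limma adjusted p = 0.0143). The call was lost without wild type 1 (0.0527).

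Basement membrane proteins other than collagen had 2 of 15 tested members called, both higher, beside 2.81% of all genes, and the median was 0.25. An unadjusted p was under 0.05 for 8 of the 15, beside 21.3% of all genes. Agrn, which encodes agrin, measured 5.99, 5.79, 6.28 and 5.92 log2 CPM across the wild types, against 6.46, 6.39, 6.58 and 6.32 across the mutants. It rose by 0.44 (SE 0.0932; limma adjusted p = 0.0135). Lama2, the laminin chain of Schwann cell and muscle basement membranes, rose by 0.35 (SE 0.0965; limma adjusted p = 0.0473), and was lost without wild type 1, 3 or 8 or mutant 1, 3 or 4, at 0.0523 to 0.131, and under median centring (0.118), quantile normalization (0.0626), the GC correction (0.185) and the Xist covariate (0.0540). Without wild type 4, 8 of the 15 were called higher, beside 3.81% of all genes. Of 17 genes of the TGF-beta pathway, which controls collagen genes, 1 was called, beside 2.81% of all genes called higher. Of the same 17, 6 had an unadjusted p under 0.05, beside 21.3% of all genes. Tgfbr1, its type I receptor, read 4.37, 4.36, 4.5 and 4.31 log2 CPM over the wild types, compared with 4.76, 4.74, 4.72 and 4.79 over the mutants, and rose by 0.37 (SE 0.0847; limma adjusted p = 0.0211). It was lost without wild type 1, 3 or 8 or mutant 1 or 4, at 0.0511 to 0.0605, and under median centring (0.0726), quantile normalization (0.0582), the GC correction (0.0968) and no filter (0.0603). The median of that list was 0.19, and 5 of the 17 were called higher without wild type 4, beside 3.81% of all genes.

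**Figure D5:**
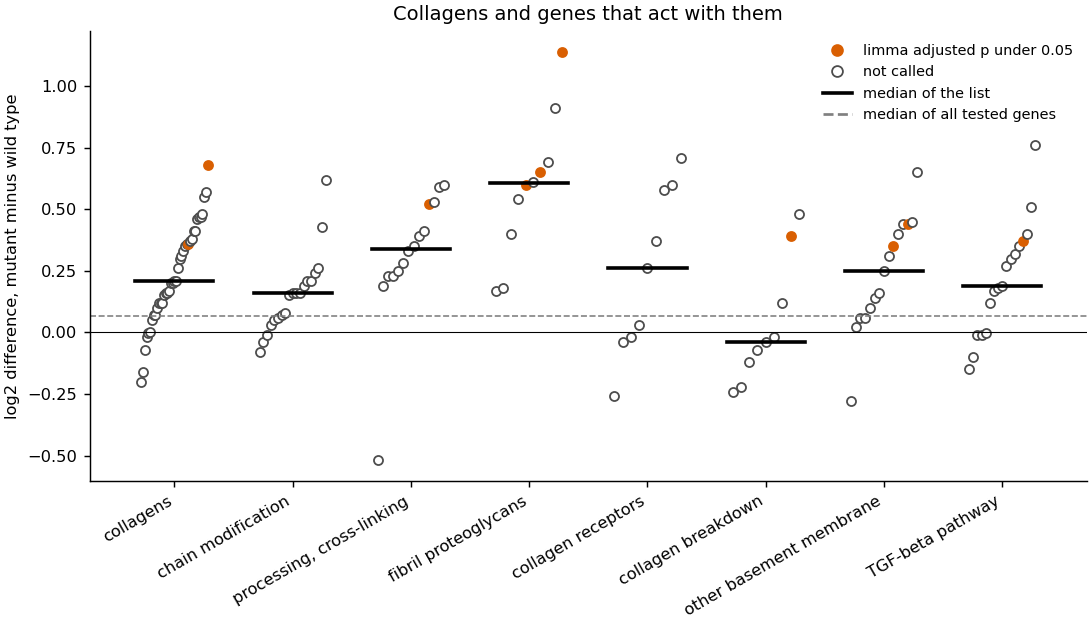
Log2 difference, mutant minus wild type, of the tested collagens and of the tested genes of 7 lists that act with them; each point is a gene, orange where the limma adjusted p is under 0.05, and the bar is the median of the list. Medians run from -0.04 for collagen breakdown to 0.60 for fibril proteoglycans, and the dashed line marks 0.066, the median of all tested genes.

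Markers of other cells that a ganglion sample can hold were read beside the collagens, and their part in these values was not tested. Of all tested genes, 2.81% were called higher and 2.64% lower, and 21.3% had an unadjusted p under 0.05. Of 9 endothelial markers 0 were called (2 at an unadjusted p under 0.05; median 0.17; sums of 93.7 to 131 CPM for wild types against 98.2 to 140.1 CPM for mutants). Of 9 tested mural cell markers 0 were called (3 unadjusted; median 0.33; 320 to 399 and 342 to 430 CPM). Satellite glia had 1 of 6 higher, Glul (3 unadjusted), with a median of 0.23 and sums of 1804 to 2206 and 1989 to 2794 CPM. Apoe had the highest wild-type mean of that list, 1378 CPM, so the sum largely follows Apoe. Sensory neurons had 1 of 10 lower, Avil (5 unadjusted), with a median of -0.10. Macrophages had 1 of 7 higher, Cd163 (4 unadjusted), with a median of 0.41 and sums of 44.5 to 68.6 and 62.2 to 95.1 CPM.

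Markers of tissues other than the ganglion were also read. Skeletal muscle markers had 0 of 7 tested members called and 7 with an unadjusted p under 0.05, beside 21.3% of all genes. The median was 1.60, and their sum was 46.4, 142, 89.2 and 91.6 CPM across wild types, compared with 86.2, 167, 163 and 417 CPM across mutants. Pvalb, also known from sensory neurons, was 1 of the 7 and differed by 0.31. It had the highest wild-type mean of the list, 40.8 CPM beside 36.7 CPM for Ttn, so the sum is not of muscle alone. Mutant 4 held the highest muscle level. Markers of cartilage, bone and tendon had 0 of 7 called, 0 with an unadjusted p under 0.05, a median of -0.04, sums of 63.8 to 77.2 and 65.9 to 80.1 CPM, and Matn1 at 0 reads in every library. Adipocyte markers had 0 of 2 tested members called, with sums of 10.02 to 13.9 and 8.01 to 17.0 CPM. Central nervous system markers had 0 of 6 called (2 unadjusted; median 0.17; 46.8 to 104 and 64.2 to 101 CPM; Opalin at 0 reads), and red blood cell markers 0 of 5 (0 unadjusted; median 0.07; 39.9 to 108 and 65.0 to 124 CPM).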

How the data were processed

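RNA sequencing of 8 ganglion samples was analysed. The authors' file is a table of moderated log2 CPM, as its name says, deposited with the GC percent of each gene. The submitters' processing notes name Salmon 0.11.1, DESeq2 and the build mm9, with no role or order. The table's 41422 lines hold 40800 identifiers, of which 402 recur with equal values and were used once. Columns were matched to samples by the genotype and number in their names. Column names also hold a running number, of a meaning not given in the sources used here, by which genotypes separate. A batch in it cannot be told apart from genotype.

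All values shared a floor of -1.79 log2 CPM. Above it, 100.0% of values were whole multiples of 1 read (tolerance 0.05 reads), which gave reads per gene and library totals. Libraries held 6183618 to 7983821 reads, and reads are not independent molecules.

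Genes with log2 CPM above 0 in at least 4 of 8 samples were tested, 15030 in all. The fit was limma 3.58.1 in R 4.3.3 (lmFit and eBayes, trend by mean level, no covariate, two-sided), with Benjamini-Hochberg adjustment over all tested genes and calls at 0.05. The fit was tested on simulated data. The count added before the logarithm draws the changes of genes with few reads toward 0. The named genes are all collagens, the called members of 7 lists of genes that act with collagen or, where a list had none, its 2 largest differences. Marker lists covered 13 cell types, of which the result of 1 is not reported here. Members and lists were chosen with earlier results of these data known. Gene lengths, coordinates and exon overlaps are from GENCODE M21 (GRCm38) for all 44 collagens, not the build of the notes. Ccn2 and Cnmd were matched under the older symbols Ctgf and Lect1. Alternatives varied the filter, the offset (1 CPM), scaling, the variance model, voom, covariates, thresholds, single samples and a replicate block. Python 3.11.15 with numpy 2.4.6, scipy 1.17.1 and matplotlib 3.10.9 served for exact tests and plots.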

Additional observations from a re-analysis of the deposited data

Results flagged for a closer look

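Among 118 sets of 4 values from a group, 6 held 1 sample that stood off from the rest, and about 5.9 are due to chance (1 in 20). Mutant 3 was the low one in 3 of them. Its Col3a1 value of 6.47 log2 CPM lay under the 7.26 to 7.37 of its group, its Col6a2 value of 5.37 under 5.96 to 6.0, and its Col6a3 value of 4.91 under 5.45 to 5.5. For Bmp1, wild type 4 stood at 4.55 log2 CPM, over the 4.05 to 4.13 of its group. Col6a1 minus Col6a2 was 0.31 log2 units for wild type 4, over 0.0 to 0.03 in its group, and 0.17 for mutant 4, over -0.05 to -0.02.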

How the results depend on the processing

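Of the 39 tested collagens, 26 kept the direction of their difference in every alternative and 13 did not. Col24a1 was called in 20 of 22 alternatives and Col16a1 in 8 of 22. Collagens called higher numbered 1 under median centring, quantile normalization, removal of the GC trend and the replicate block, and 0 with no filter, with no variance trend and with a log2 difference of at least 1 asked for. With 1 sample left out they ranged from 1 to 6, the 6 without wild type 4, and 0 were called lower in each alternative. Higher and lower genes over the whole table were 14 and 24 with no filter, 204 and 706 under median centring, 67 and 75 with no variance trend, 229 and 735 with the GC trend removed, 876 and 612 at an adjusted p under 0.1, and 47 and 32 with a log2 difference of at least 1; quantile normalization gave 271 higher. With 1 sample left out they ranged from 174 to 572 higher and 230 to 427 lower. They numbered 174 higher and 230 lower without wild type 1, while higher genes numbered 226 when wild type 3 was dropped and 183, 266 and 206 when mutant 1, 2 or 4 was. Centring moved the all-gene median from 0.07 to -0.03, and the GC correction to -0.02. The cause of the other shifts was not tested.

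The labels give the numbers 1, 3 and 4 to a wild type and a mutant each, but deviations from group means correlated at only 0.0806, 0.0414 and 0.0575 within a number, so the numbers were not read as pairs. A replicate block on these 6 samples gave 326 higher and 345 lower genes, and the same samples with no block 180 and 267. Called collagens numbered 1 in each fit, Col24a1, and Col16a1 was at 0.34 with an adjusted p of 0.104 in the block. Adjusted p with and without the block was above 0.05 for Bmp1 (0.0826 and 0.104), Agrn (0.0580 and 0.0660), Omd (0.0516 and 0.0947) and Tgfbr1 (0.0952 and 0.0935), and for Lama2 without it (0.0935). Differences in these 6 samples, with and without the block, were -0.19 for Col1a1, -0.21 for Col3a1, -0.02 for Col5a1, -0.05 for Col6a3, -0.07 for Col8a2 and -0.11 for Col9a3, opposite in direction to all 8 samples.

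Other uncalled differences that changed direction were small. Under median centring and with the GC trend removed they were -0.02 and -0.01 for Col1a1, -0.02 and -0.07 for Col3a1 and -0.04 and -0.02 for Col9a3. Under quantile normalization they were -0.10 for Col9a3 and -0.03 for Col22a1. Under voom and the Xist covariate they were 0.01 and 0.02 for Col5a3, 0.05 and 0.04 for Col13a1 and 0.01 and 0.04 for Col25a1, which was at 0.02 with sample weights. With 1 sample left out, ranges that crossed 0 were -0.17 to 0.40 for Col1a1, -0.23 to 0.12 for Col2a1, -0.16 to 0.41 for Col3a1, -0.02 to 0.34 for Col5a1, -0.08 to 0.11 for Col5a3, -0.01 to 0.48 for Col6a3, -0.03 to 0.81 for Col6a5, -0.06 to 0.39 for Col7a1, -0.02 to 0.45 for Col8a2, -0.08 to 0.23 for Col9a3, -0.23 to 0.14 for Col13a1, -0.07 to 0.44 for Col22a1, -0.05 to 0.09 for Col25a1. For chain pairs they were -0.05 to 0.05 for Col4a1 minus Col4a2, -0.12 to 0.0044 for Col6a1 minus Col6a2, -0.01 to 0.45 for Col9a2 minus Col9a3, -0.03 to 0.28 for Col11a1 minus Col11a2. Group medians moved by less than 1 SD of the medians of single samples (0.318 for fibrillar, 0.228 for basement membrane and 0.213 for other collagens). That SD spans all 8 samples of both genotypes, so it is a loose measure and says little about stability. Without 1 sample the group medians ranged from -0.02 to 0.41 for fibrillar, 0.04 to 0.22 for basement membrane and 0.16 to 0.44 for other collagens.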
